A study of Mus musculus with 2 samples.

Results

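Aquaporins are membrane channels that let water, and in some members glycerol, cross cells of the nephron. The genes described here are Aqp1, Aqp2, Aqp3, Aqp4, Aqp6, Aqp7, Aqp8 and Aqp11, chosen by name. Every probe set that the platform annotation assigns to exactly 1 of these 8 genes was taken, which gave 19 of the array's 45101 probe sets. The 8 are among 18194 genes named on the array, which measured kidney RNA of an EST KO AKI pool and a WT AKI pool. EST is estrogen sulfotransferase, the Sult1e1 product, which inactivates estrogens by sulfation, and AKI is acute kidney injury. Both pools came from male C57BL/6 mice that had 30 min of warm bilateral renal ischemia and were killed 24 h later, after reperfusion, and the labels give 8 weeks as the age, in a sentence of the treatment protocol that names the wild types and is attached to both pools. The EST KO AKI pool combined 124 mg of tissue from 6 mice that lack EST, and the WT AKI pool 180 mg from 3 mice. How the EST allele was made, and in which cells it is lost, is not given in the labels.

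Each pool was read on 1 array, so the spread between mice is unknown, no test between genotypes can be made, and no value compares injured with uninjured kidney. The labels' sources give kidney for both pools, but the treatment protocol names liver for the EST KO AKI pool. Alb, which encodes the main liver plasma protein, read 522.3 in the EST KO AKI pool and 487.9 in the WT AKI pool, below background in both, and 3 of 11 hepatocyte genes on the array exceeded background. These were Ttr, the thyroid hormone carrier (log2 ratio of EST KO AKI over WT AKI 2.80), Cps1, a urea cycle enzyme (0.15), and Serpina1c, a protease inhibitor (at least 1.33-fold lower). Sult1e1, the disrupted gene, read 17.2 in the EST KO AKI pool and 472.7 in the WT AKI pool. Both values lay below background, so they do not check the genotype. Background was the 95th percentile of 129 probe sets for sensory receptors and keratin-associated proteins, 638.3 on the EST KO array and 676.1 on the WT array. A gene above it in at least 1 pool was called measured. That held for 7480 of 18194 named genes.

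Water reabsorption along the nephron passes through different aquaporins in turn. Aqp1 is the constitutive water channel of the proximal tubule and the thin descending limb, and it also lies in the descending vasa recta and in red blood cells. In collecting duct principal cells, vasopressin moves Aqp2 to the apical membrane and raises its transcription, while Aqp3 and Aqp4 let water leave on the basolateral side. Aqp6 sits in vesicles of intercalated cells. Aqp7 carries water and glycerol in the last part of the proximal tubule, Aqp8 is described inside tubule cells of the rat, and Aqp11 lies in the endoplasmic reticulum of proximal tubule cells, where its loss in mice leads to cysts.

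Of the 8 genes, 5 were measured, and their directions differed. Aqp1 was higher in the EST KO AKI pool, Aqp2 and Aqp4 were lower, and the brightest probe sets of Aqp3 and Aqp11 read close to the same in both pools. Aqp6, Aqp7 and Aqp8 lay below background in both pools. By any size, 3 of the 5 measured aquaporins were higher and 2 lower, against 43.6% of all measured genes higher and 54.6% lower. With the mean of probe sets per gene in place of the brightest, 1 of the 5 was higher and 4 were lower. That mean counts probe sets below background in both pools at -0.083, the log2 ratio of the backgrounds, and only these made Aqp11 lower. None of the 5 was 2-fold apart in either direction, whereas 3.02% of measured genes were higher and 1.4% were lower by 2-fold or more. Aqp4, whose ratio is a bound, passed 2-fold with no floor, with a pseudocount and with a lower background. Their median log2 ratio, EST KO AKI over WT AKI, was 0.04, against -0.06 over all measured genes. Of the 19 probe sets, 5 exceeded background in both pools, 2 in the WT AKI pool alone, and 12 in neither. Over all 45101 probe sets, 24.2% exceeded background on the EST KO array and 24.0% on the WT array.

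**Figure D1:**
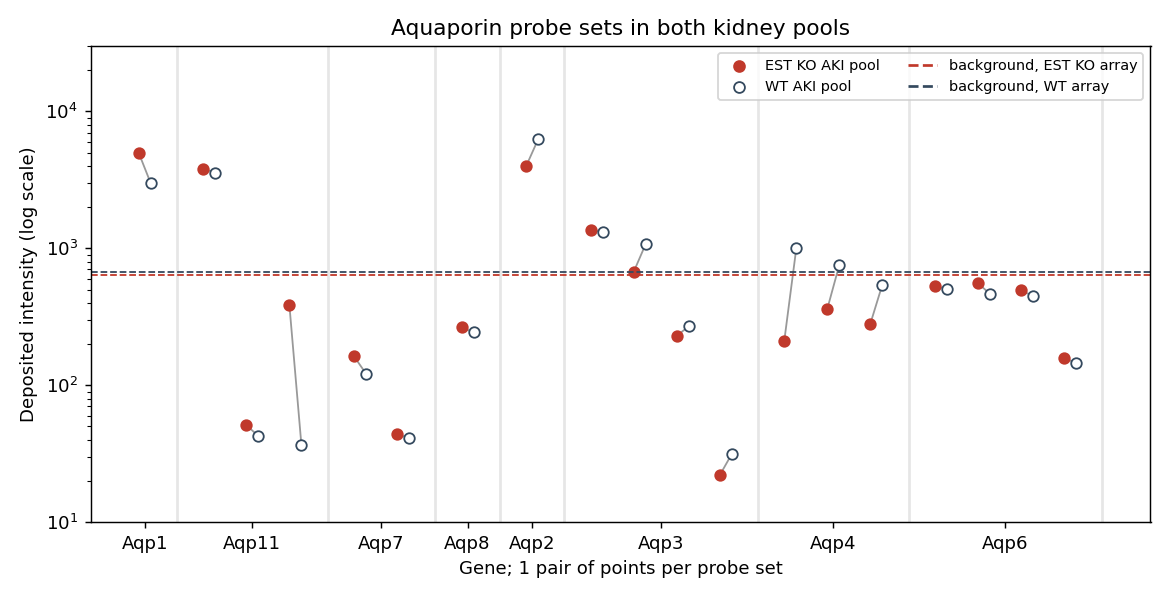
Deposited intensity (log scale) of all 19 aquaporin probe sets, with filled points for the EST KO AKI pool and open points for the WT AKI pool, joined per probe set; dashed lines mark each array's background. Aqp1 reads higher in the EST KO AKI pool (4971.9 against 2977.7), Aqp2 lower (3964.2 against 6236.0), and both probe sets of Aqp4 that exceed background lower, while all probe sets of Aqp6, Aqp7 and Aqp8 lie under both lines.

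The only error that 1 array per pool allows is the disagreement between probe sets of a gene. Over 1663 genes with more than 1 probe set above background in both pools, ratios of the 2 brightest differed by a median of 0.21 on the log2 scale. The SD of these differences was 0.39, which, divided by the square root of 2, gave an SD of 0.28 for a single log2 ratio. This SD covers probe behaviour and not the differences between mice. In size, the ratios of Aqp1 and Aqp2 exceeded it, and those of the brightest probe sets of Aqp3 and Aqp11 did not. The next Aqp3 probe set, at -0.68, did exceed it. For Aqp4 the bound at the brightest probe set, -0.65, exceeded it, and the bound at another, -0.25, did not.

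The promoters of Aqp1, Aqp2 and Aqp3 are shown because these genes were measured in both pools and had a higher, a lower and a near-equal reading. Each stretch is the 250 bases before the annotated start from RefSeq, build GRCm38.p6, written 5′ to 3′ on the gene's strand. The Aqp1 stretch is chr6:55336049-55336298 on the plus strand, the Aqp2 stretch chr15:99578806-99579055 on the plus strand, and the Aqp3 stretch chr4:41098184-41098433 on the minus strand. Capitals mark matches, on either strand, to GATAA (bound by GATA factors), TGACG (the core of the cAMP response element) or AGGTCA (a hexamer bound by estrogen and other nuclear receptors).
Aqp1: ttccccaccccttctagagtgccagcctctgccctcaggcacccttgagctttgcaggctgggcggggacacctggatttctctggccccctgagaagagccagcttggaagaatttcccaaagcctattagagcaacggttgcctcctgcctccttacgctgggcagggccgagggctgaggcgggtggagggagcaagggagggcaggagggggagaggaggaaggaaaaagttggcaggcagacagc
Aqp2: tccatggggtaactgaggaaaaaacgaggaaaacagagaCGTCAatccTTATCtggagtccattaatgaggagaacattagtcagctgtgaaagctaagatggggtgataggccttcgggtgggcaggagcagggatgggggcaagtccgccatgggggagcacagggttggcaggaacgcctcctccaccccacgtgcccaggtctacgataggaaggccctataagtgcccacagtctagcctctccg
Aqp3: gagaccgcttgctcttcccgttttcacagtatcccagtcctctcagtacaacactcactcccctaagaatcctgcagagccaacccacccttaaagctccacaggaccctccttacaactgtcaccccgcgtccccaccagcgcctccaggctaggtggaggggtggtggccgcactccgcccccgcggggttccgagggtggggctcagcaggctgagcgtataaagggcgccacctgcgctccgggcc

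The Aqp2 stretch held 1 match to TGACG and 1 to GATAA, both on the reverse strand (CGTCA and TTATC), without overlap, starting 211 and 202 bases before the annotated start. It held no match to AGGTCA, and the Aqp1 and Aqp3 stretches held no match to any of the 3 motifs. Over 32851 promoter windows of the same length, 17.8% held TGACG, 22.6% GATAA and 14.02% AGGTCA, so each match is common. A match describes letters in a window and not a bound site.

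Aqp1, the main water channel of the proximal tubule, had 1 probe set, which read 4971.9 in the EST KO AKI pool and 2977.7 in the WT AKI pool. The level was 1.67-fold higher in the EST KO AKI pool, a log2 ratio of 0.74. Of all measured genes with an order, 5.88% had a ratio at least as high. Because whole kidney tissue was measured, more cells of a type and more RNA per cell cannot be told apart, for this and every gene below.

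**Figure D2:**
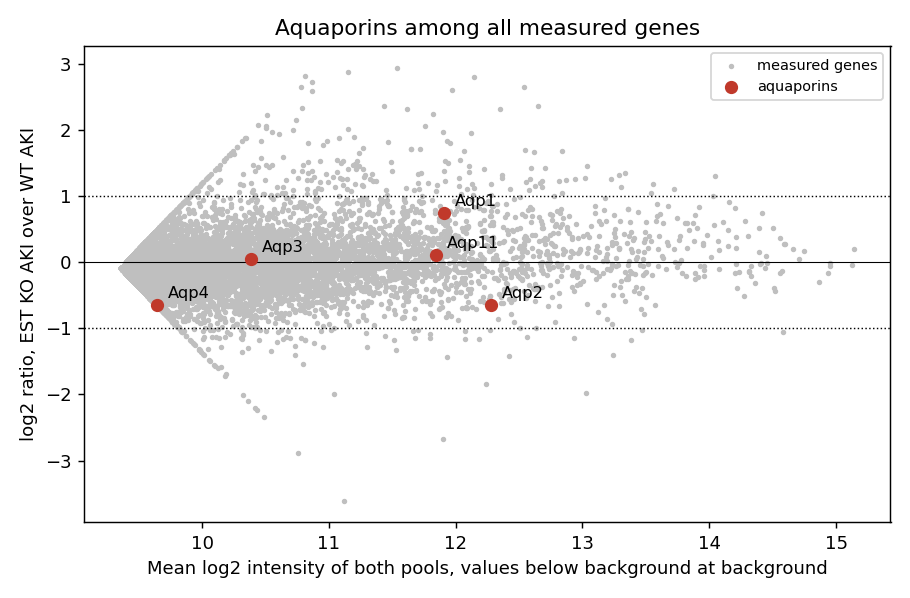
Log2 ratio of EST KO AKI over WT AKI against the mean log2 intensity of both pools, for all measured genes with an order (grey) and the 5 measured aquaporins (red); dotted lines mark 2-fold. All 5 aquaporins lie within the dotted lines, with Aqp1 at 0.74 and Aqp2 at -0.65, and Aqp4 lies on the lower edge that the background level sets.

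Genes of the first parts of the proximal tubule, S1 and S2, were higher in the EST KO AKI pool for 15 of 15 measured genes, 8 of them at least 2-fold. Their median log2 ratio was 1.32, ranging between 0.12, itself a lower bound, and 2.95, so the Aqp1 ratio of 0.74 lay below the median of this list. The list median was 0.84 with the mean of probe sets, which counts those below background in both pools at -0.083. Beside this list and each list below, 43.6% of all measured genes were higher and 54.6% lower. By 2-fold or more, 3.02% were higher and 1.4% lower. Of the S1 and S2 genes measured in both pools, Pdzk1, a brush border scaffold, had the largest log2 ratio (2.95). Slc13a3, a dicarboxylate transporter (2.73), and Slc22a6, an organic anion transporter (2.61), followed. Next was Slc7a7, a subunit of a basolateral amino acid exchanger. It read 3375.3 in the EST KO AKI pool and 843.4 in the WT AKI pool. The other probe sets of Slc22a6 and Slc7a7 had WT AKI values below background and stood at 0.88 or more and 0.93 or more. Slc2a2, another gene of the list, was at least 3.55-fold higher, so its place in the order is unknown. Across 20 measured genes with an order of the S1 and S2 and thin limb lists, the ratios nearest to that of Aqp1 over the 2 arrays were those of Slc34a1, the sodium-phosphate cotransporter (0.75), and Slc5a2, the glucose transporter SGLT2 (0.78). Slc34a1 read 28347 in the EST KO AKI pool and 16871 in the WT AKI pool, and Slc5a2 read 6507.5 in the EST KO AKI pool and 3780.6 in the WT AKI pool.

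The thin limb and endothelial lists, read for the other sites of Aqp1, went the other way. These lists do not separate the thin descending limb or the descending vasa recta from the rest. All 5 measured thin limb genes were lower in the EST KO AKI pool, with a median log2 ratio of -0.44. Cryab, a small heat shock protein abundant in the medulla, read 1866.9 in the EST KO AKI pool and 4679.1 in the WT AKI pool (log2 ratio -1.33), and both of its probe sets above background were lower. Slc14a2, a urea transporter described further with urine concentration, was at least 2.92-fold lower, Tspan8, a tetraspanin, stood at -0.44 and Cldn4, a claudin of tight junctions, at -0.36. All 11 measured endothelial genes were lower too (median -0.32). The list's summed level over its 15 genes on the array, 4 of them below background, was 12643 in the EST KO AKI pool and 16541 in the WT AKI pool. At their brightest probe sets, Esam (-0.07), Cdh5 (-0.09), Emcn (-0.11) and Ehd3 (-0.22) lay within the SD of 0.28 between probe sets. The other probe set of Ehd3 stood at -0.42, and Pecam1 was at least 1.19-fold lower. The largest differences were those of Nos3, the endothelial nitric oxide synthase (at least 1.93-fold lower), Eng, a TGF-beta co-receptor (-0.75, and -0.04 at its other probe set), Egfl7, a secreted endothelial protein (-0.66, and -0.11 at its other probe set), and Plvap, a component of capillary fenestrae (-0.62). Slc14a1, the urea transporter of descending vasa recta and red blood cells, lay below background in both pools. Of 6 red blood cell genes on the array, 1 was measured, Slc25a37 (-0.18), a mitochondrial iron importer. The part of each cell type in the Aqp1 reading was not tested.

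Aqp11 had 1 probe set above background, which read 3821.6 in the EST KO AKI pool and 3548.7 in the WT AKI pool. This was 1.08-fold higher, a log2 ratio of 0.11, inside the SD between probe sets, and the sign turned under quantile normalization (-0.058). It also turned with the mean of probe sets (-0.020), but only because 2 probe sets below background entered at -0.083, the log2 ratio of the backgrounds. The probe set above background carries the suffix that marks possible cross-hybridisation. The other 2 probe sets of Aqp11 read 51.3 and 387.1 in the EST KO AKI pool, against 42.5 and 36.7 in the WT AKI pool, all below background. The level of Aqp11 therefore rests on a probe set that may read other transcripts as well. Among genes of the S1, S2 and S3 lists measured in both pools, the ratio nearest to that of Aqp11 was that of Kap, an androgen-regulated kidney gene (0.20), whose other probe set stood at -0.34.

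Aqp7 was read by 2 probe sets, at 163.0 and 44.0 in the EST KO AKI pool and at 121.7 and 41.2 in the WT AKI pool, all below background. Aqp7 belongs to segment S3, the last part of the proximal tubule, and is also the glycerol channel of adipocytes. The S3 list had 5 of 8 measured genes higher and 3 lower in the EST KO AKI pool, with a median log2 ratio of 0.37, or 0.095 under quantile normalization and 0.076 with the lower background. Acy3, an aminoacylase, was higher at 2.37, Slc5a8, a lactate and butyrate transporter, was at least 2.92-fold higher, and Atp11a, a phospholipid flippase, stood at 1.09. Slc22a7, an organic anion transporter, was at least 2.61-fold lower, and Slc7a13, an S3 amino acid transporter, had a log2 ratio of -0.04. Of 6 adipocyte genes on the array 3 were measured, with log2 ratios of -0.07 for Retn (resistin), 0.04 for Fabp4, a fatty acid carrier (-0.29 at its other probe set), and 0.62 for Lpl, lipoprotein lipase.

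Aqp8 had 1 probe set, reading 265.0 in the EST KO AKI pool and 243.4 in the WT AKI pool, below background in both. No fold is given for Aqp7 or Aqp8, and a reading under background does not show that a gene is silent.

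Aqp2, the vasopressin-regulated channel, had 1 probe set, and it read 3964.2 in the EST KO AKI pool and 6236.0 in the WT AKI pool. Its level was 1.57-fold lower in the EST KO AKI pool, a log2 ratio of -0.65, and 5.55% of measured genes with an order had a ratio at least as low. On the log2 scale, Aqp1 and Aqp2 lay 1.39 apart.

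Aqp4, a basolateral channel of principal cells, was lower at both of its probe sets that exceeded background. The brightest read 211.1 in the EST KO AKI pool and 1002.8 in the WT AKI pool, so that its level was at least 1.57-fold lower, with the EST KO AKI value below background. Another read 361.5 in the EST KO AKI pool and 757.9 in the WT AKI pool, at least 1.19-fold lower. The remaining probe set read 281.3 in the EST KO AKI pool and 543.9 in the WT AKI pool, below background in both and so without an order. The WT AKI readings themselves lay close to background, the brightest at 1.48 times it, so the size of the difference depends on how dim values are treated: the log2 ratio was -2.25 with no floor and -0.33 with the mean of the probe sets.

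Aqp3, the other basolateral channel, which also carries glycerol, had probe sets that disagreed. The brightest read 1360.6 in the EST KO AKI pool and 1320.8 in the WT AKI pool, 1.03-fold higher, a log2 ratio of 0.04. The next read 671.4 in the EST KO AKI pool and 1074.0 in the WT AKI pool, 1.60-fold lower, a log2 ratio of -0.68. These 2 ratios lay 0.72 apart, and 6.79% of genes with a pair of probe sets had a gap at least that wide. The other 2 probe sets read 228.7 and 22.0 in the EST KO AKI pool and 270.0 and 31.5 in the WT AKI pool, below background in both. With the mean of its probe sets the log2 ratio of Aqp3 was -0.20, with the 2 below background entered at -0.083. The direction of Aqp3 is not settled.

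Aqp6, the intercalated cell member, was read by 4 probe sets between 159.4 and 556.5 in the EST KO AKI pool and between 144.2 and 505.3 in the WT AKI pool. All 8 readings lay below background. The intercalated cell list had 4 of its 16 genes on the array measured, 2 higher and 2 lower. Car12, a membrane carbonic anhydrase, read 2972.0 in the EST KO AKI pool and 708.7 in the WT AKI pool (log2 ratio 2.07). Car2, the cytosolic carbonic anhydrase, stood at -0.33, Atp6v0d2, a proton pump subunit, at -0.21, and Slc26a4, the chloride-bicarbonate exchanger pendrin, at 0.09. Slc4a1, the basolateral anion exchanger of these cells and of red blood cells, lay below background in both pools.

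The principal cell list did not move in a single direction. Of 10 measured genes, 5 were higher and 4 lower in the EST KO AKI pool, 1 had no order, and none was 2-fold apart. The median log2 ratio was 0.18, and -0.024 with the mean of probe sets, which counts those below background in both pools at -0.083. Tfcp2l1, a transcription factor of the collecting duct, was highest at 0.91, and Ptges, a prostaglandin E synthase, was lowest at -0.67. Fxyd4, a sodium pump regulator, stood at -0.44. Hsd11b2, which shields the mineralocorticoid receptor from glucocorticoids, stood at 0.29, and Scnn1a, the alpha subunit of the epithelial sodium channel, at 0.26. Scnn1b, its beta subunit, was at least 1.16-fold lower, and Scnn1g, its gamma subunit, read 668.1 in the EST KO AKI pool and 165.9 in the WT AKI pool and had no order. The genes of this list with ratios nearest to that of Aqp2, among 9 with an order, were Ptges and Fxyd4, and those nearest to the brightest probe set of Aqp3 were Npnt, the matrix protein nephronectin (0.18), and Scnn1a.

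**Figure D3:**
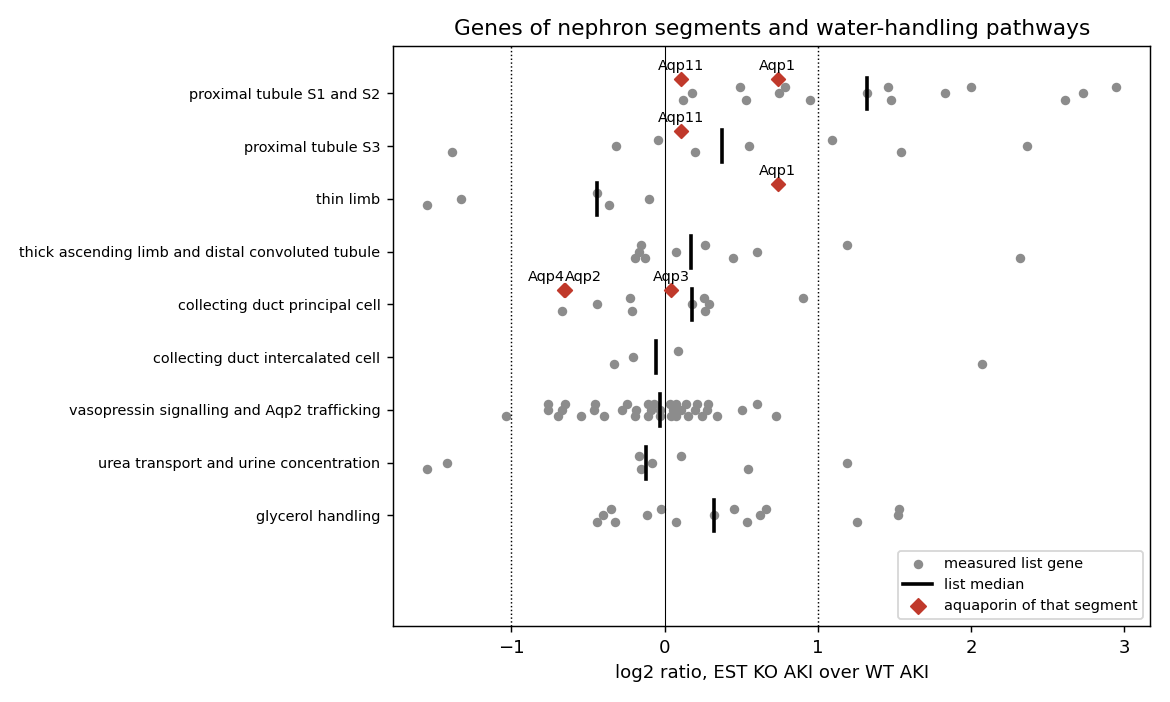
Log2 ratio of EST KO AKI over WT AKI for the measured genes with an order of each list (grey points, with the list median as a black bar), and for the aquaporins of that segment (red diamonds). Aqp1, at 0.74, lies among the S1 and S2 genes (median 1.32) and above all thin limb genes. Aqp2, at -0.65, and Aqp4, drawn at its bound of -0.65, lie at the low end of the principal cell list (median 0.18).

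Vasopressin raises cAMP through its receptor Avpr2 and an adenylyl cyclase, and protein kinase A then drives Aqp2 to the membrane and its gene to be transcribed. Avpr2 itself read 367.6 in the EST KO AKI pool and 375.5 in the WT AKI pool, below background in both. Of the 53 genes listed for this pathway and for Aqp2 trafficking, 37 were measured, 17 higher and 20 lower in the EST KO AKI pool. These shares, 45.9% and 54.1%, were near the 43.6% and 54.6% of all measured genes. The list's median log2 ratio was -0.03, which centring on the median gene turned to 0.021. Akap12, an anchor of protein kinase A, read 3015.2 in the EST KO AKI pool and 6190.1 in the WT AKI pool (-1.04), and was the only gene of the list at least 2-fold apart. Adcy6, an adenylyl cyclase of the collecting duct, read 668.0 in the EST KO AKI pool and 1132.2 in the WT AKI pool (-0.76). Prkar2a, a regulatory subunit of protein kinase A, read 1525.7 in the EST KO AKI pool and 2588.9 in the WT AKI pool (-0.76), with all 3 of its probe sets above background lower. Hspa5, an endoplasmic reticulum chaperone that binds Aqp2, was highest at 0.73, but its 3 probe sets ranged between -0.58 and 1.08. The catalytic subunits Prkaca (-0.11) and Prkacb (0.04) and the vesicle proteins Vamp3 (-0.03) and Snap23 (0.04) lay within the SD between probe sets.

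Water follows the medullary gradient of salt and urea, so genes of urine concentration were read beside the aquaporins. In the EST KO AKI pool 3 of the 8 measured genes were higher and 5 lower (median log2 ratio -0.12). Slc14a2, the urea transporter of the thin limb and inner medullary collecting duct, read 515.6 in the EST KO AKI pool and 1865.4 in the WT AKI pool, at least 2.92-fold lower, while its other probe set lay below background in both pools (585.4 in EST KO AKI and 565.1 in WT AKI). Slc5a3, the myo-inositol carrier that loads cells with osmolyte, read 3353.0 in the EST KO AKI pool and 8956.7 in the WT AKI pool (-1.42), with both probe sets above background lower. Nfat5, the transcription factor of the osmotic response, stood at 0.11. Slc12a1, the salt transporter of the thick ascending limb, read 6775.5 in the EST KO AKI pool and 2965.4 in the WT AKI pool (1.19), and Cldn10, a claudin of tubule tight junctions, stood at 0.54. In the full list of the thick ascending limb and distal convoluted tubule, 6 of 10 measured genes were higher and 4 lower (median 0.17). The list was led by Egf, the growth factor made there (2.32), and Slc12a1. Pvalb, a calcium buffer of the distal convoluted tubule, was at least 1.52-fold higher, Slc12a3, the thiazide-sensitive salt transporter, stood at 0.44, and Umod, the urinary protein uromodulin, stood at -0.17, with its other probe set at 0.05. Aqp2, Aqp4, Slc14a2, Slc5a3 and Cryab were named as lower, but the lists beside them did not all go that way. All 5 measured thin limb genes were lower, against 5 higher and 4 lower of the principal cell list. The share of medulla in the tissue is not given in the labels, and its part in the lower readings was not tested.

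Glycerol that enters through Aqp3 and Aqp7 can be phosphorylated and used for lipid or glucose. Gk, the glycerol kinase gene, had no probe set naming it alone. Gk5 read 384.6 in the EST KO AKI pool and 154.7 in the WT AKI pool, below background in both. Of 15 measured genes of glycerol handling, 9 were higher and 6 lower in the EST KO AKI pool. Of the 15, 3 were at least 2-fold higher, and the median log2 ratio was 0.32, with a lowest of -0.44. Dgat2, which completes triglyceride synthesis, read 4059.5 in the EST KO AKI pool and 1403.3 in the WT AKI pool (1.53, and 0.70 at its other probe set). Gpd1l, related to glycerol-3-phosphate dehydrogenase, stood at 1.52, and Mgll, monoglyceride lipase, at 0.66 with all 3 probe sets above background higher. Gpd1, the cytosolic glycerol-3-phosphate dehydrogenase, stood at 1.25, with 2 of its 3 probe sets above background higher and 1 lower.

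Tubular injury genes were lower in the EST KO AKI pool for 14 of 17 measured members, with a median log2 ratio of -0.94, and stand here only as the state of the tissue in which the aquaporins were read. With bounds and exact ratios together, the list was led by Fgg and Fga, fibrinogen chains made by injured tubules (at least 7.38-fold lower, and -2.67). The remaining fibrinogen chain, Fgb, read 7.5 in the EST KO AKI pool and 1284.4 in the WT AKI pool, at least 2.01-fold lower, so its place in the order is unknown. Other members were Krt20, a keratin of damaged tubules (-1.41), and Lcn2, which encodes the injury marker NGAL (-1.06). The part of injury in the aquaporin readings was not tested.

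Other aquaporin genes on the array were Mip, Aqp5, Aqp9 and Aqp12, of which none exceeded background in either pool. Aqp5, the gene between Aqp2 and Aqp6 on the chromosome, read 44.9 in the EST KO AKI pool and 33.8 in the WT AKI pool. Upk1a, a uroplakin, was the only gene measured of 8 urothelial genes on the array (0.08), and none of 6 testis and epididymis genes was measured.

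**Figure D4:**
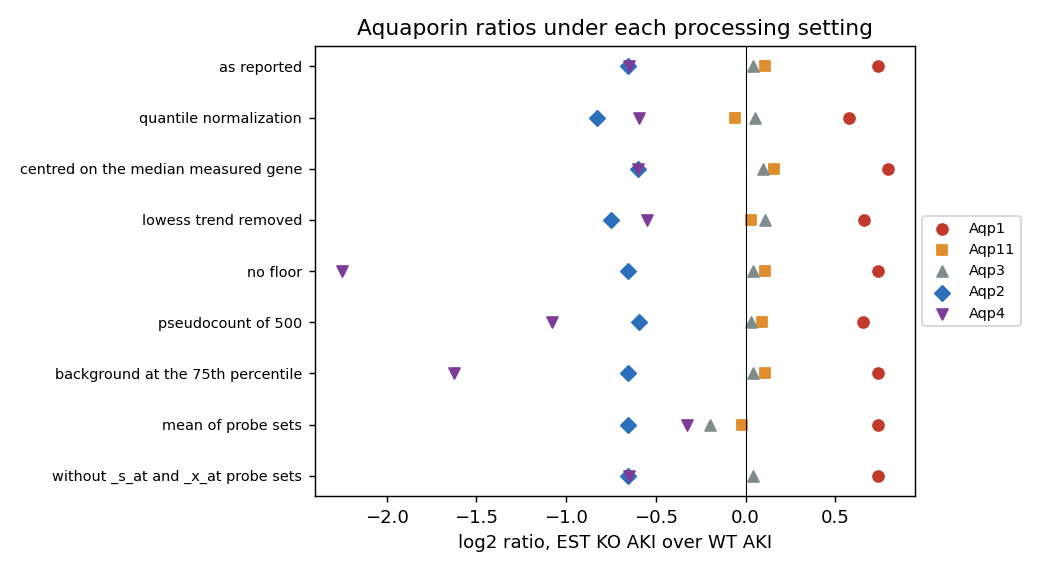
Log2 ratio of EST KO AKI over WT AKI for the 5 measured aquaporins as reported and under 8 other processing settings. No floor, the lower background and both probe set settings could not move Aqp1 or Aqp2, which have 1 bright probe set each. Aqp1 stays between 0.58 and 0.79 and Aqp2 between -0.83 and -0.59, Aqp4 ranges between -2.25 and -0.33, and Aqp3 and Aqp11 lie on both sides of 0; Aqp11 has no value without probe sets of possible cross-hybridisation.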

How the data were processed

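The authors' deposited values are linear intensity, 1 per probe set and array. On the values themselves, the mean of each array without its lowest and highest 2% was 500.0, and the sorted values differ between arrays. Neither the summary method nor the scanner software is given in the sources used here. RNA was labelled by the standard Affymetrix protocol, per the labels' protocols. No scaling was added: array medians were 242.4 (EST KO AKI) and 261.8 (WT AKI).

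Of the probe sets, 34958 had 1 gene symbol in the platform annotation, 932 several and 9211 none. Symbols were updated by Entrez ID through RefSeq (GRCm38.p6), which matched 34754. Each gene's value is that of the probe set brightest on average. Values below background were set to it before log2, so folds against them are bounds ("at least"). A gene above background in 1 pool whose floored ratio pointed the other way had no order (134 genes) and entered no direction or median. The 18 gene lists, the members and the naming rule (all members, and up to 4 measured genes per list with the largest ratio, plus defining genes) were chosen with earlier results of these data known. Of the list genes, 16 had no probe set naming them alone. Promoter motifs, neighbouring genes and the list genes Slc2a2, Umod, Fgb, Kap, Prkaca, Prkacb, Vamp3 and Snap23 were chosen after values were seen. So were the list genes Esam, Cdh5, Emcn, Ehd3, Pecam1 and Gk5. The alternative lower background is the 75th percentile of the same probe sets. In the mean of probe sets, a probe set below background in both pools enters at -0.083, the log2 ratio of the backgrounds. The calls were tested on simulated data. Python 3.11.15, numpy 2.4.6, pandas 2.3.3 and statsmodels 0.14.6 were used.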

Additional observations from a re-analysis of the deposited data

How the results depend on the processing

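The directions of Aqp1, Aqp2 and Aqp4 were kept under all 8 alternatives: quantile normalization, centring on the median gene, removal of the lowess trend, no floor, a pseudocount of 500, background at the 75th percentile, the mean of probe sets, and leaving out probe sets of possible cross-hybridisation. Aqp1 and Aqp2 have 1 probe set each, well above background and not of possible cross-hybridisation. No floor, the 75th percentile and both probe set settings therefore could not change their ratios, and only the remaining settings could. The 2 Aqp4 probe sets that exceeded background did so in the WT AKI pool alone. The direction of Aqp4 therefore could not turn with no floor, the pseudocount, the 75th percentile or either probe set setting. The log2 ratio of Aqp4 moved to -2.25 with no floor, -1.62 with the 75th percentile, -1.08 with the pseudocount and -0.33 with the mean of probe sets. Aqp3 turned to -0.20 with that mean, and Aqp11 to -0.020 with it and to -0.058 under quantile normalization. With the mean of probe sets, 1 aquaporin was higher and 4 lower. Aqp11 turned under that mean only through probe sets below background in both pools, each entered at -0.083. Without probe sets of possible cross-hybridisation, Aqp11 was not measured. With the 75th percentile, Aqp6 was measured as well, 1.05-fold higher.

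The number of genes at least 2-fold higher was 150 with the mean of probe sets, against 226 as reported. The number at least 2-fold lower, 105 as reported, was 57 with that mean, 54 with the pseudocount, 197 with no floor and 204 with the 75th percentile. With the mean of probe sets, which includes those below background in both pools, the median of the S1 and S2 list moved to 0.84. That of the principal cell list turned to -0.024 with it. The S3 median was 0.076 with the 75th percentile and 0.095 under quantile normalization. The median of the vasopressin list turned to 0.021 after centring and to 0.0048 without probe sets of possible cross-hybridisation. A move was set against the SD of 0.28 between probe sets. The cause of moves other than those of dim values and of fewer probe sets was not tested. No paired analysis was possible because each group has 1 array. The arrays' number, and readings near background for Aqp3 and Aqp4, limit the precision.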

Other observations

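The genes next to the aquaporins on their chromosomes were read after the values of the aquaporins were known. Of 13 neighbouring protein-coding genes that are not members, 11 had a probe set naming them alone, and 5 exceeded background in at least 1 pool. Kctd1, the neighbour of Aqp4, had the widest ratio of these 5. A probe set of Kctd1 read 462.4 in the EST KO AKI pool and 3245.9 in the WT AKI pool, at least 5.08-fold lower. Its other probe set read 859.5 in the EST KO AKI pool and 2544.7 in the WT AKI pool, 2.96-fold lower. At their brightest probe sets, the other 4 measured neighbours had log2 ratios of -0.11 for Faim2 next to Aqp2, -0.21 for Nol6 next to Aqp3, -0.02 for Clns1a next to Aqp11 and 0.21 for Ghrhr next to Aqp1. A second probe set above background stood at -0.70 for Clns1a and at -0.0053 for Nol6. Whether the readings of Aqp4 and Kctd1 share anything beyond their place was not tested.

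Probe sets of the dim aquaporin genes held some wide gaps below background. A probe set of Aqp11 read 387.1 in the EST KO AKI pool and 36.7 in the WT AKI pool, and Aqp12, a family member of the exocrine pancreas, read 522.5 in the EST KO AKI pool and 241.9 in the WT AKI pool. Values below background have no order here.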
